A study of Homo sapiens with 4 samples.

Results

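The 37 genes described here encode the machinery that imports, folds, checks and disposes of proteins in the endoplasmic reticulum (ER), together with the sensors that regulate it. They were taken from a fixed list of chaperones, disulfide isomerases, translocation, ER exit, ER degradation and unfolded protein response genes. Of the 37 listed genes 36 had a probe set of their own, among 19775 genes measured, and SYVN1 was not analysed here. The cells were KM-H2, an established human cell line derived from Hodgkin lymphoma. RNA came from cells given PTPN1 siRNA, a small interfering RNA that reduces the tyrosine phosphatase PTPN1, or from cells given a non-silencing control (the control arrays below), both grown under standard conditions. Each group had 2 arrays, numbered 1 and 2 and described as technical replicates. Every SE and p-value here therefore reflects technical variation between arrays, pooled in part over all genes, and none between cultures. A knockdown of this kind is transient and partial, and a single cell line was used.

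Proteins bound for secretion or for membranes enter the ER through the SEC61 channel, are bound by chaperones of the HSP70 and HSP90 families and receive disulfide bonds from isomerases. Sugar-bearing proteins also pass through the calnexin and calreticulin cycle, and proteins that fail to fold are drawn back to the cytosol and degraded. When unfolded proteins accumulate, the sensors ATF6, IRE1 (encoded by ERN1) and PERK (encoded by EIF2AK3) raise the output of chaperone and degradation genes, in part through the transcription factor XBP1. This response is needed for antibody-secreting plasma cells, and the PTPN1 protein is itself anchored to the ER membrane. The comparison asked how these genes differ when PTPN1 is reduced.

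The promoters of the ER stress response carry a shared DNA element, and its letters are shown first because the element recurs among the listed genes. The letters themselves were not used to choose the genes, but the list was drawn in part from genes of that response. A high share among them is therefore no independent result. The element ERSE reads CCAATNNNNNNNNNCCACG, where N is any base. ATF6 is known to bind its CCACG end together with the general factor NF-Y at CCAAT, and the related element ERSE-II reads ATTGG and CCACG with 1 base between them. Both were sought on both strands in the 250 bases before each transcript start in a RefSeq table of promoters on GRCh38.p14, in which 33 of the 37 genes had an entry. PDIA3, SEC24D, DERL1 and DERL3 were not in that table. ERSE was found in 7 of the 33 genes (21.2%) and in 8 of their 43 promoter entries. Of all 35116 promoters in the table, which include these entries, 26 had it (0.0740%). ERSE-II was found in 3 of 33 genes (9.09%) and 3 of the 43 entries, against 18 of 35116 promoters (0.0513%). No gene held both. The shorter core of the XBP1-binding element UPRE, TGACGTGG, was present in VCP, HYOU1 and SSR3. These are 3 of 33 genes and 3 of the 43 entries, against 0.612% of all promoters. The letters CCACG alone, which every ERSE and ERSE-II contains and which UPRE contains on its other strand, occurred in 24 of 33 genes. They occurred in 29 of the 43 entries, against 33.5% of all promoters. A match describes the letters in this window and does not show that a factor binds there. Variants with other letters at the fixed bases, and matches outside the window, were not sought.

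The matches, written in the orientation of the element with its fixed bases in capitals, show how the spacer differs between genes while both ends stay fixed:
HSP90B1, distal: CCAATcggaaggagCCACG
HSP90B1, proximal: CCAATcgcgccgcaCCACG
CRELD2: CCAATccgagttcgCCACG
CALR: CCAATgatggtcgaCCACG
CANX: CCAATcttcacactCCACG
HSPA5: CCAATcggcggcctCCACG
PDIA6: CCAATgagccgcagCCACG
XBP1: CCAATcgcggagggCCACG
HERPUD1: ATTGGgCCACG
SDF2L1: ATTGGtCCACG
HYOU1, distal: ATTGGaCCACG
HYOU1, proximal: ATTGGaCCACG
HSP90B1 was the gene with 2 ERSE matches in opposite orientations, and HYOU1 the gene with 2 ERSE-II matches.

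The whole windows before the start are given for the 4 genes with a match and the highest positive difference in knockdown, in the direction of transcription, with the fixed bases of each match in capitals. The windows are chr12:103930160-103930409 (plus strand) for HSP90B1, which encodes the ER form of HSP90, chr16:56931892-56932141 (plus strand) for HERPUD1, which organises the degradation complex, chr22:21642052-21642301 (plus strand) for SDF2L1, a partner of ER chaperones, and chr22:49918384-49918633 (plus strand) for CRELD2, a stress-inducible ER protein:
HSP90B1: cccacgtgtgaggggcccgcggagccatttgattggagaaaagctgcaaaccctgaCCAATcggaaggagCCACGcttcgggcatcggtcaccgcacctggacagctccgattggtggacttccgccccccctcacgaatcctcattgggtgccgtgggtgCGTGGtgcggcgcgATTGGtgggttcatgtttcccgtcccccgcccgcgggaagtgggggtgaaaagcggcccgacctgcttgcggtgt
HERPUD1: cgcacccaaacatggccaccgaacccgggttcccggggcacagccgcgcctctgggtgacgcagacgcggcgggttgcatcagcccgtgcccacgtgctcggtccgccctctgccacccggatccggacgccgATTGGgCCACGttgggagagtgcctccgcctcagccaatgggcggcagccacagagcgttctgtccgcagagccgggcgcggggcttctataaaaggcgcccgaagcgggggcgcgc
SDF2L1: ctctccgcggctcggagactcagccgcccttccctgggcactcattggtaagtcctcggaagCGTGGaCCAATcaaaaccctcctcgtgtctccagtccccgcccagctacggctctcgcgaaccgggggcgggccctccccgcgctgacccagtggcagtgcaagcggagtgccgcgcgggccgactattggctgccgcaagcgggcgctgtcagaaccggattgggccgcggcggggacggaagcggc
CRELD2: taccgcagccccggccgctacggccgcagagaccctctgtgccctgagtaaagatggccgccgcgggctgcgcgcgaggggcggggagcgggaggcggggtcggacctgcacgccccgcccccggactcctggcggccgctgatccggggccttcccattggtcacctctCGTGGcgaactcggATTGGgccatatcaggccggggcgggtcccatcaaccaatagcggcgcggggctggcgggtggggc
In HSP90B1 the matches began 194 and 89 bases before the start, in HERPUD1 117, in SDF2L1 188 and in CRELD2 80 bases before it.

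**Figure D1:**
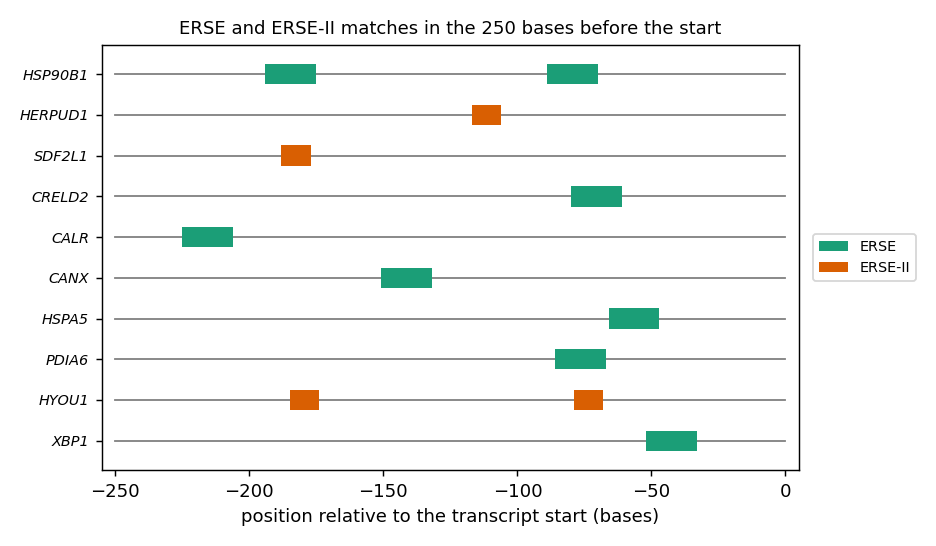
Positions of the ERSE and ERSE-II matches in 10 of the genes, on a horizontal axis in bases relative to the transcript start, with 1 line per gene ordered by the knockdown difference from the highest (top) to the lowest. Matches are drawn to scale, and they lie between 225 bases (CALR) and 34 bases (XBP1) before the start of the promoter entry in which the match was first found.

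The values are log2 signals, each from the brightest probe set of a gene. Signals of different genes come from different probes and cannot be ranked against each other. PTPN1 itself read 8.16 and 8.40 in control arrays 1 and 2 and 7.00 and 7.36 in knockdown arrays 1 and 2. The knockdown arrays were the lower pair, by a log2 difference of -1.10 with a limma adjusted p of 0.769. All 15 Hodgkin cell markers lay above the median of all values in the control arrays, as did 3 of 10 plasma cell markers (ELL2, FKBP11 and PRDM1). The plasma cell list averaged 5.83 and 5.48 in the control arrays and 5.57 and 5.58 in the knockdown arrays, with SDC1, TNFRSF17, JCHAIN and MZB1 at or below 4.85 in the control mean. Above that median were also 5 of 7 B cell, 4 of 8 T and NK cell and 3 of 6 myeloid markers. So were 6 of 12 stromal, endothelial or epithelial markers, and 12629 of all 19775 genes. CD3D (10.06) and COL1A1 (9.69) were bright in the control mean. B cell, T and NK cell, myeloid and stromal or epithelial lists averaged between 5.19 and 6.05 in each array. The part of such cells in the results was not tested. As a gauge of RNA quality and amplification, the 3' beta-actin probe set exceeded the 5' one by 1.31 (control) and 1.33 (knockdown) in number 1, and by 0.972 and 0.969 in number 2. For GAPDH the same measure was 0.319 (control) and 0.293 (knockdown) in number 1, and 0.212 and 0.258 in number 2.

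All 36 genes read above the array median in the control cells. So did 12629 of all 19775 genes, and 9886 of the 9888 at or above the median gene mean. Differences in knockdown were small. They ranged from -0.45 (SEC24D) to 0.34 (HSP90B1), with 27 genes above 0 and 9 below, where 48.2% of all genes lay above 0. The median of the 36 genes was 0.07, against -0.01 for all 19775. Within number 1 it was 0.06, and within number 2 it was 0.08. None of the 36 passed limma's test (adjusted p = 1 for each), nor did any gene in all (0% called), and 0 of the 36 had an unadjusted p under 0.05, against 2.57% of all genes. Without control array 2 the median of the 36 was -0.02 and 17 lay above 0 (47.2%, against 46.8% of all genes). Without knockdown array 1 that median was 0.01 and 21 lay above 0 (58.3%, against 44.8% of all genes). In 7 genes both knockdown arrays lay above both control arrays (19.4%, against 12.4% of all genes) and in 1 both lay below (2.78%, against 15% of all genes), so the groups overlapped in the other 28. Among the 9888 genes at or above the median gene mean 54.2% lay above 0, 12.2% were apart upward and 9.47% downward. Leaving out control array 1, control array 2, knockdown array 1 or knockdown array 2 gave 21, 12, 11 and 22 genes with the remaining arrays apart in the upward direction, a looser criterion with 3 arrays. The share over all genes by this looser criterion is not given here, so these counts are not read as a result about the 36.

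**Figure D2:**
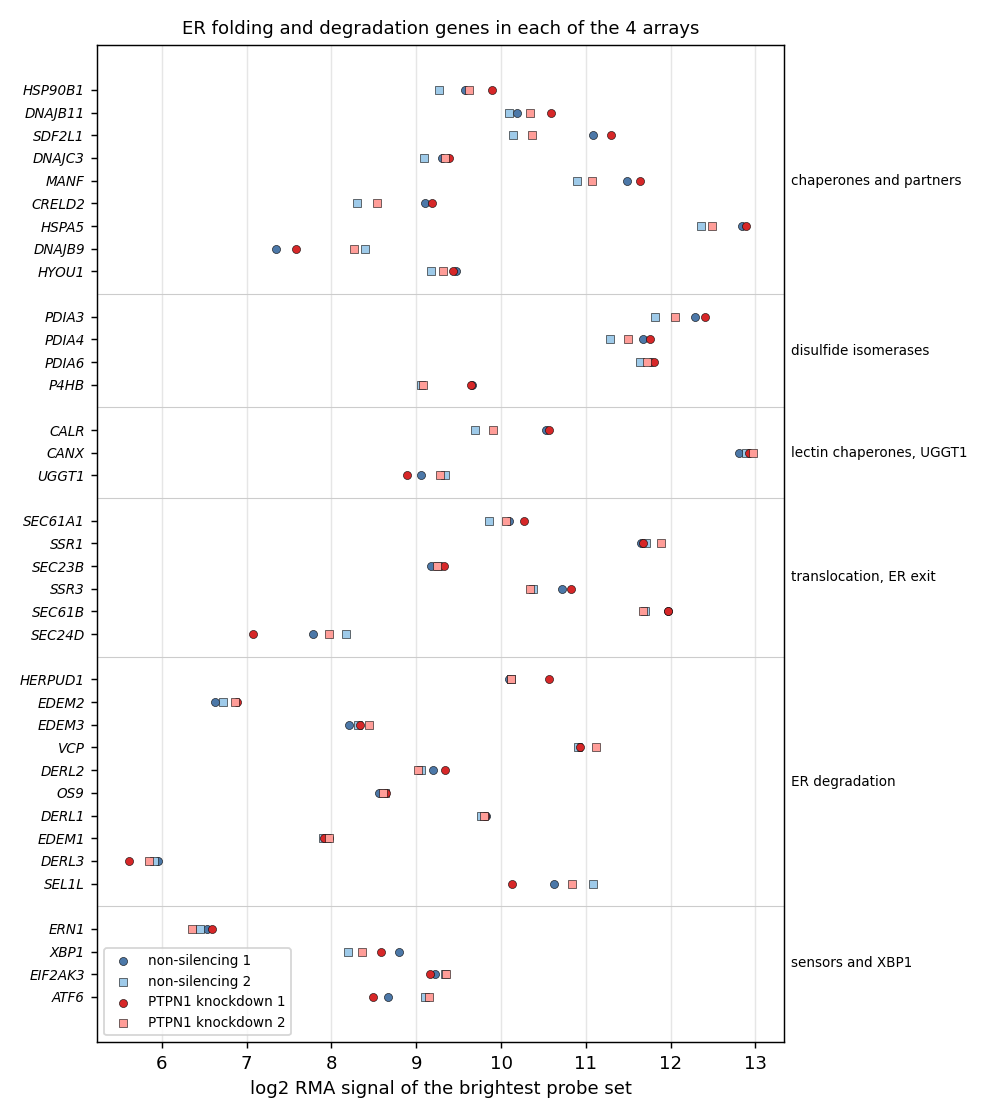
Log2 signal of each of the 36 genes (horizontal axis) in the 4 arrays, grouped by role and ordered within a role by the knockdown difference. Circles are arrays numbered 1 and squares arrays numbered 2, and for genes such as SDF2L1, CALR and DNAJB9 the points pair by array number (shape) rather than by group (colour).

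Among chaperones of the HSP70 and HSP90 type and their partners all 9 had positive differences, with a median of 0.16. In 8 of 9 the difference was above 0 within number 1 (50.3% of all genes) and in 8 of 9 within number 2 (47.7% of all genes), and 7 of 9 were above 0 in both (27.8% of all genes). Among genes at or above the median gene mean these shares were 50.2%, 56.9% and 34.4%. HSP90B1 read 9.57 and 9.26 in control arrays 1 and 2 and 9.89 and 9.62 in knockdown arrays 1 and 2. Both knockdown arrays were higher, although control array 1 and knockdown array 2 were only narrowly apart. The difference was 0.34 (SE 0.18), or 1.27-fold, and it was 0.32 and 0.36 within the array numbers. Its second probe set, at 8.57 and 8.20 against 8.56 and 8.56, differed by 0.17 with the groups overlapping. Both HSP90B1 probe sets are of a type whose probes may also match other transcripts. So are the probe sets used for CALR, DERL3 and OS9.

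DNAJB11, a co-chaperone that brings clients to BiP, read 10.19 and 10.09 in the control arrays and 10.59 and 10.34 in the knockdown arrays. Its groups did not overlap, and the difference was 0.33 (SE 0.15), with 0.41 and 0.25 within the numbers. DNAJC3, another BiP co-chaperone known as an inhibitor of PERK, read 9.30 and 9.10 against 9.38 and 9.34. That is a difference of 0.16 (SE 0.14). The remaining DNAJC3 probe sets, which read 5.64 to 6.54, differed by 0.45, 0.52 and 0.32. Their groups overlapped in each case, and they differed by -0.62, -0.99 and -0.82 between the array numbers.

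HSPA5 encodes BiP, the central HSP70 chaperone of the ER. It read 12.84 and 12.36 in the control arrays and 12.90 and 12.49 in the knockdown arrays, so that the groups overlapped and the arrays numbered 2 were lower in both. The difference was 0.09 (SE 0.23), 1.06-fold. SDF2L1 read 11.09 and 10.15 against 11.30 and 10.36, a difference of 0.22 with an SE of 0.44. Within the numbers it was 0.21 and 0.22, so that an almost equal step recurred in both pairs while the arrays numbered 2 were lower throughout. MANF, an ER stress protein that can also be secreted, gave 0.15 and 0.17 within the numbers and a mean of 0.16 (SE 0.29). CRELD2 differed by 0.16 (0.08 and 0.23). HYOU1, a large HSP70-related chaperone, read 9.47 and 9.18 against 9.43 and 9.31, a difference of 0.05 (-0.04 and 0.14). DNAJB9, a co-chaperone that holds IRE1 inactive, read 7.35 and 8.39 against 7.59 and 8.27, and its differences of 0.24 and -0.12 had opposite signs. Without control array 2 or without knockdown array 1, 4 of these 9 genes were above 0 in either case (46.8% and 44.8% of all genes). Their medians were -0.098 and -0.0083. Without control array 1 or without knockdown array 2, 8 were above 0 in either case (49.2% and 51.7% of all genes).

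Protein disulfide isomerases showed differences from 0.00 to 0.17, all of them with overlapping groups. PDIA3, which works with the lectin chaperones, read 12.29 and 11.82 in the control arrays and 12.40 and 12.05 in the knockdown arrays, which is a difference of 0.17 (SE 0.22). PDIA4 differed by 0.15 (SE 0.19) and PDIA6, which also acts on the sensor IRE1, by 0.06 (SE 0.13). P4HB encodes the classical isomerase PDI. It read 9.65 and 9.06 against 9.65 and 9.08, so that knockdown and control arrays of one number nearly coincided (0.00, SE 0.29).

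Among the genes of the glycoprotein folding cycle, calnexin and calreticulin lay above 0 and the folding sensor UGGT1 below. CANX, the membrane-bound lectin chaperone, read 12.80 and 12.89 in the control arrays and 12.92 and 12.97 in the knockdown arrays. Its groups were apart by a narrow margin, with a difference of 0.11 (SE 0.12). The other CANX probe sets above the array median differed by 0.13, 0.32 and 0.42. CALR, its soluble counterpart, read 10.53 and 9.69 against 10.57 and 9.90, a difference of 0.13 (SE 0.36) in overlapping groups. The other CALR probe sets differed by 0.02 and 0.17. UGGT1, which tags misfolded glycoproteins for another round of folding, read 9.06 and 9.34 against 8.89 and 9.28, a difference of -0.11 (SE 0.20). The other UGGT1 probe sets were divided in sign, at -0.075, 0.0041, 0.045 and -0.0055.

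Genes of translocation and ER exit had overlapping groups in each of the 6 cases. SEC61A1, the pore-forming subunit of the channel, had the highest difference of the role. It read 10.09 and 9.86 in the control arrays and 10.27 and 10.06 in the knockdown arrays, which is a difference of 0.19 (SE 0.16) that was 0.18 and 0.21 within the numbers. Its small partner SEC61B differed by -0.02, the translocon-associated subunits SSR1 and SSR3 by 0.10 and 0.04, and SEC23B, a subunit of the COPII coat that buds vesicles from the ER, by 0.07. SEC24D, the cargo-selecting COPII subunit, gave the lowest value of the 36 genes. It read 7.78 and 8.17 against 7.07 and 7.98. Knockdown array 1 stood well below the other arrays, while knockdown array 2 lay between the controls. The difference was -0.45 (SE 0.33), 0.73-fold, with -0.71 in number 1 and -0.19 in number 2, and without knockdown array 1 it was 0.0013.

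Among ER degradation genes the highest and the lowest differences belonged to subunits of the same ubiquitin ligase complex. HERPUD1 read 10.10 and 10.12 in the control arrays and 10.57 and 10.12 in the knockdown arrays. Its difference of 0.24 (SE 0.19) came from array number 1 (0.48) and was -0.01 in number 2, and without knockdown array 1 it was 0.0078. SEL1L, the scaffold that links substrates to the ligase, read 10.62 and 11.09 against 10.13 and 10.84. This difference of -0.37 (SE 0.29), 0.77-fold, was -0.50 and -0.25 within the numbers, and without knockdown array 1 it was -0.02. Of the other SEL1L probe sets, all above the array median, the differences were -0.15, -0.14 and -0.49, so that each of the 4 lay below 0.

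The mannosidase-like genes EDEM2 and EDEM3, which mark glycoproteins for disposal, had groups that did not overlap. EDEM2 read 6.63 and 6.72 in the control arrays and 6.89 and 6.86 in the knockdown arrays, which is a difference of 0.20 (SE 0.12). EDEM3 read 8.21 and 8.31 against 8.34 and 8.44, and its difference of 0.13 (SE 0.13) was 0.13 in both numbers. Another EDEM3 probe set, at 8.08 and 8.41 against 8.15 and 8.42, differed by 0.04 with the groups overlapping. The remaining EDEM3 probe set differed by 0.40 with the groups barely apart. EDEM1 differed by 0.00. VCP, the ATPase that pulls proteins out of the membrane, read 10.92 and 10.91 against 10.93 and 11.12. Its groups were apart, but the difference of 0.11 rested on number 2 (0.22, against 0.01 in number 1). The second VCP probe set, at 10.22 and 9.98 against 10.21 and 10.15, differed by 0.08 with the groups overlapping.

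DERL3 was the gene whose knockdown arrays both lay below the controls, at 5.96 and 5.91 against 5.61 and 5.85, a difference of -0.20 (SE 0.14). It belongs to the Derlin family of membrane proteins of the degradation channel, and its relatives DERL1 and DERL2 differed by 0.01 and 0.06. The DERL3 probe set used is of the type whose probes may also match other transcripts. The second DERL3 probe set differed by 0.01, and the remaining one, below the array median, by -0.24. The lectin gene OS9, which delivers misfolded glycoproteins to SEL1L, differed by 0.03.

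For the sensors and XBP1 all 4 means lay slightly below 0, from -0.06 to -0.02, and each of the 4 changed sign between the array numbers. ATF6 read 8.66 and 9.10 in the control arrays and 8.50 and 9.16 in the knockdown arrays (-0.06, SE 0.28). ERN1 read 6.53 and 6.45 against 6.59 and 6.36 (-0.02, SE 0.14). For EIF2AK3 the values were 9.22 and 9.34 against 9.16 and 9.35 (-0.03, SE 0.14). XBP1 read 8.79 and 8.19 against 8.58 and 8.36, a difference of -0.02 (SE 0.24) that was -0.21 in number 1 and 0.17 in number 2. These signals give transcript levels alone, and neither the splicing of XBP1 by IRE1 nor the cleavage of the ATF6 protein was measured.

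**Figure D3:**
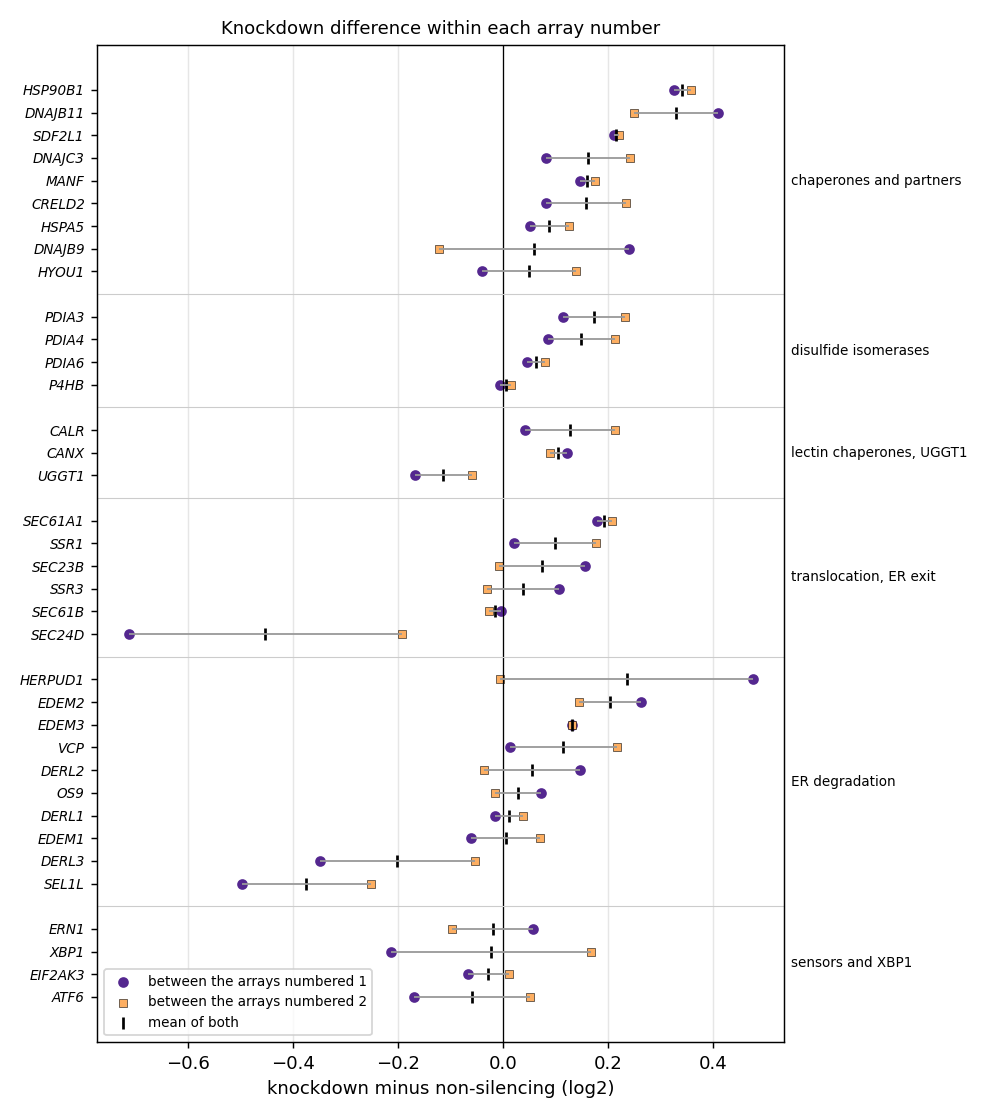
Knockdown minus non-silencing difference of the 36 genes on the log2 scale, within number 1 (circles) and within number 2 (squares), with the mean of both as a vertical tick. HSP90B1, SDF2L1, MANF, SEC61A1 and EDEM3 gave nearly equal differences in both numbers, whereas SEC24D (-0.71 and -0.19), HERPUD1 (0.48 and -0.01) and DNAJB9 (0.24 and -0.12) did not.

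Of the 10 genes with ERSE or ERSE-II, 9 had a positive difference and their median was 0.12, and of the 22 measured genes with a promoter entry and neither element 16 had a positive difference, with a median of 0.06. Of all genes 48.2% lay above 0. Most of the 10 are chaperone, isomerase or lectin chaperone genes, and the part of the element apart from role was not tested. XBP1 was the gene with a match and a difference below 0.

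Differences between the array numbers were larger than those between the groups for 24 of the 36 genes (66.7%), against 62.8% of all genes and 73.0% of the 9888 genes at or above the median gene mean. The labels do not say what arrays of one number have in common. In a limma fit with terms for group and number, 10 of the 36 genes passed at an adjusted p under 0.05 (27.8%), against 9.85% of all genes, and 16.7% of those 9888 genes. Of these 6 were lower in the arrays numbered 2 (4.45% of all genes) and 4 were higher (5.41% of all genes). Chaperones held 5 of the 10. The fit leaves a single residual degree of freedom per gene, so its SEs rest largely on a variance that limma pools over all genes.

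SDF2L1 fell the furthest, by 0.94 (SE 0.10, limma adjusted p = 0.0133), to 52.1% of its signal in the arrays numbered 1. The step from array 1 to array 2 was -0.95 in the control pair and -0.94 in the knockdown pair. CALR was lower by 0.75 (adjusted p = 0.0198), CRELD2 by 0.72 (adjusted p = 0.0208), MANF and P4HB by 0.58 each (adjusted p = 0.0277 and 0.0275) and HSPA5 by 0.44 (adjusted p = 0.0495, the closest of the 6 to the threshold). All 3 CALR probe sets (-0.75, -0.66 and -0.85) and all 3 P4HB probe sets (-0.58, -0.33 and -0.92) were lower in number 2, as were both of HSPA5 (-0.44 and -0.62).

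DNAJB9 went the other way. It rose by 0.86 (SE 0.12, limma adjusted p = 0.0206), 1.82-fold, with 1.04 in the control pair and 0.68 in the knockdown pair, and its other probe sets differed by 0.59 and 0.79. SEC24D was higher by 0.65 (adjusted p = 0.049), SEL1L by 0.59 (adjusted p = 0.034) and ATF6 by 0.55 (adjusted p = 0.0372). For SEL1L and ATF6 the probe sets disagreed in sign. Of the other SEL1L probe sets the values were -0.18, -0.03 and 0.41, of ATF6 -0.27, 0.41 and 0.28. The other SEC24D probe sets, both below the array median, were higher by 0.15 and 0.074. The beta-actin measure given above also differed between the numbers, and the GAPDH measure did so less. The part of RNA quality in these differences was not tested.

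In all, 20 of the 36 genes were lower in array 2 than in array 1 in both groups (55.6%, against 37.1% of all genes and 43.2% of those at or above the median gene mean) and 9 were higher in both (25.0%, against 30.4% and 37.4%). The chaperones (8 of 9, DNAJB9 excepted) and the isomerases (4 of 4) made up most of the lower ones, whereas of 10 degradation genes 2 were lower and 2 higher in both groups. Of the 10 genes with ERSE or ERSE-II 9 had a lower mean in number 2, with a median of -0.35, and of the 22 with neither 10 did, with a median of 0.00. The median of all genes was -0.02. The element overlaps with role. Chaperone and isomerase genes with no exact match to either element in the window were lower too (MANF, P4HB, PDIA4, DNAJB11 and DNAJC3), except DNAJB9. PDIA3, lower by 0.41, had no promoter entry. The part of the element apart from role was not tested. CANX was the gene with the element whose mean was higher, by 0.07.

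**Figure D4:**
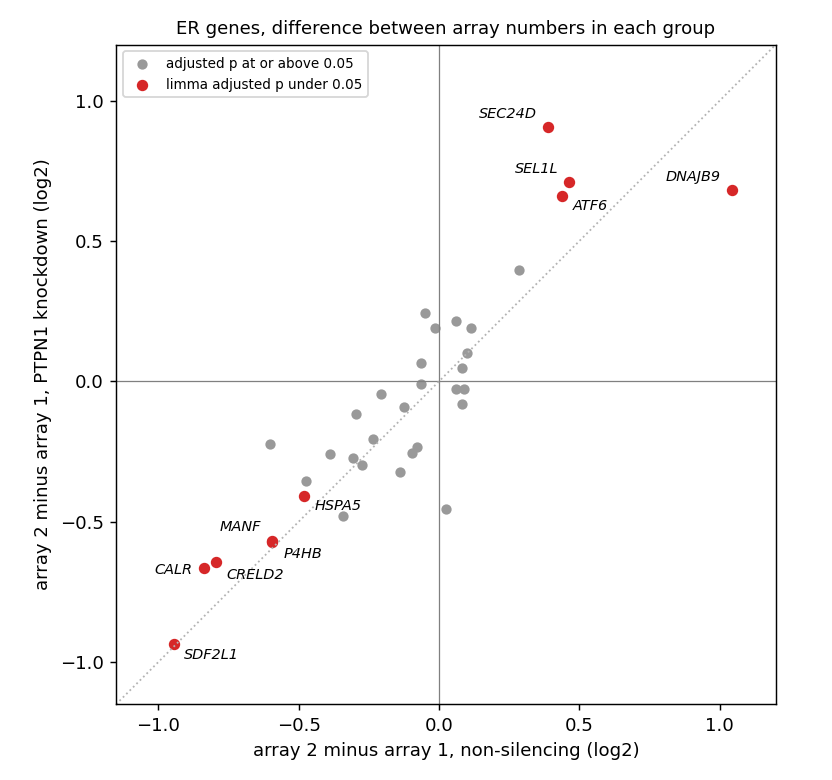
Difference between array 2 and array 1 on the log2 scale in the control pair (horizontal axis) and in the knockdown pair (vertical axis) for the 36 genes, with the 10 that passed in limma named and in red and a dotted line of equality. Points of MANF and P4HB coincide near -0.6, and the pairs share no array, so that each point shows separate measurements on its axes.

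Other genes of the pathway, 118 measured of 125 listed, also showed small differences in knockdown. Their median difference was 0.03, with 73 above 0 (61.9%, against 48.2% of all genes and 54.2% of those at or above the median gene mean). With the groups apart 16 were higher (13.6%, against 12.4% and 12.2%) and 8 lower (6.78%, against 15% and 9.47%). In limma 0 passed, with 1 at an unadjusted p under 0.05. By role the medians were 0.07 for other chaperones and isomerases (26 genes), 0.02 for translocation and glycosylation (27), 0.02 for COPII and retrieval (16), 0.01 for other degradation genes (21), 0.11 for the PERK branch (14) and 0.07 for other regulators (14). The PERK branch had 14 of 14 genes above 0 in number 1 (median 0.16, with 50.3% of all genes above 0) and 7 of 14 in number 2 (median -0.0055, with 47.7% of all genes above 0).

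FKBP14, a prolyl isomerase of the ER, had the highest difference among those with the groups apart. It read 6.60 and 6.59 in the control arrays and 6.97 and 6.93 in the knockdown arrays, 0.35 apart (SE 0.12), and was the gene with an unadjusted p under 0.05. TUSC3, an oligosaccharyltransferase subunit with a dim signal, differed by 0.32 (SE 0.18) and SEC22B, a vesicle fusion protein, by 0.20 (SE 0.16). The lowest were RNF5, a membrane ubiquitin ligase, at -0.40 (SE 0.16), the signal peptidase subunit SEC11C at -0.24 (SE 0.15) and FKBP9 at -0.24 (SE 0.18). RNF5, FKBP9 and TUSC3 fell below the median of all values in at least 1 array.

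In the PERK branch ATF4, its transcription factor, read 10.77 and 11.33 in the control arrays and 11.61 and 11.25 in the knockdown arrays, so that the groups overlapped. DDIT3, which encodes the stress factor CHOP, differed by 0.24 in knockdown (SE 0.26), and fell by 0.51 in the arrays numbered 2 (limma adjusted p = 0.0434). ATF4, DDIT3, FKBP11 and ERO1B were chosen after their values were seen. Between the array numbers 14 of the 118 passed (11.9%, against 9.85% of all genes and 16.7% of those at or above the median gene mean), 9 lower and 5 higher in number 2. FKBP11, a prolyl isomerase abundant in secretory cells, was lowest at -0.92 (limma adjusted p = 0.0156) and the oxidase gene ERO1B highest at 1.32 (limma adjusted p = 0.0079).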

How the data were processed

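Total RNA of 4 KM-H2 samples was hybridised to Affymetrix arrays after 2 cycles of amplification, per the labels' protocols. The log2 values, as deposited, are RMA output of the authors (submitters' processing notes), a method with background correction, quantile normalization and 1 summary per probe set. The software version is not given in the sources used here. Groups and array numbers came from the titles. Of 54675 probe sets 41097 had 1 gene symbol in the platform's annotation, updated by gene identifier with RefSeq (GRCh38.p14), and each gene took its probe set with the highest mean. No further normalization was applied. The groups were compared in limma 3.58.1, run in R 4.3.3 (lmFit, eBayes, no covariates, two-sided, Benjamini-Hochberg over 19775 genes, threshold 0.05), and number 2 with number 1 in a fit with group and number as terms. The number of arrays limits the precision. The fits were tested on simulated data with independent noise in each array, so deviations shared by same-numbered arrays were not simulated.

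The genes and lists were chosen with earlier results of these data known. Values in every array are given for genes with the groups apart, the extremes of each role and the sensors, and genes passing between the array numbers were added after their values were seen. From the other pathway genes the 3 highest and 3 lowest with the groups apart are named. Promoters are printed for up to 4 genes with ERSE or ERSE-II, highest difference first. Protein motifs were not analysed here. Alternatives were quantile normalization, median centring, other choices of probe set, a filter on dim genes, other variance models, a replicate block and leaving out each array.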

Additional observations from a re-analysis of the deposited data

How the results depend on the processing

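The count of 0 genes passing in limma between the groups held with quantile normalization, centring, other probe sets, the filter on dim genes, robust moderation and no moderation. It was 1 with a variance trend and from 0 to 1 without 1 array. Same-numbered arrays deviated together from their group means (r = 0.648 across genes, which are not replicates), but the labels tie a number to nothing shared. With the replicate number as a block 72 genes passed (0.364%), 0 of the 36 ER genes among them but PTPN1 included (adjusted p = 0.0251), and 4 of the 36 had an unadjusted p under 0.05 (11.1%, against 10.3% of all genes). The median of the ER genes was 0.087 with centred arrays and ranged from -0.017 to 0.12 without 1 array, and the count higher with the groups apart from 11 to 22. That count has no share over all genes beside it. Leaving out 1 array sets unequal array numbers against each other, which moves the genes that differ between numbers. No fit of number 2 against number 1 without 1 array was possible, since no residual degrees of freedom remain. With dim genes left out 17 ER genes passed between the numbers, with fewer genes to adjust over, and 8 or 9 with each of the other settings. The shares of all genes passing in these settings are not given here. These alternatives were chosen after seeing the data. Over the settings 9 single calls were lost and 10 gained with the sign kept. Besides these, SEL1L and ATF6, which passed in the main fit, changed sign with the second brightest probe set (-0.18 and -0.27).

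Single genes changed sign in knockdown as follows. With quantile normalization the values were P4HB -0.014, EDEM1 -0.025 and DERL1 -0.0066. With centred arrays the value was SEC61B 0.0028. With the mean of all probe sets the values were DERL2 -0.038, ATF6 0.059 and EIF2AK3 0.022. With the second brightest probe set the values were DNAJB9 -0.031, P4HB -0.030, SSR3 -0.040, HERPUD1 -0.14, DERL2 -0.13, DERL3 0.0095, ATF6 0.10, ERN1 0.085 and EIF2AK3 0.071. Without 1 array the ranges that crossed 0 were DNAJB9 from -0.46 to 0.58, SEC61B from -0.16 to 0.13, OS9 from -0.0022 to 0.059, ERN1 from -0.14 to 0.097, XBP1 from -0.32 to 0.28, HSPA5 from -0.15 to 0.33, HYOU1 from -0.098 to 0.20, SDF2L1 from -0.26 to 0.69, CRELD2 from -0.24 to 0.56, MANF from -0.14 to 0.46, PDIA3 from -0.063 to 0.41, PDIA4 from -0.045 to 0.34, P4HB from -0.29 to 0.30, CALR from -0.29 to 0.55, UGGT1 from -0.31 to 0.085, SSR3 from -0.20 to 0.28, EDEM1 from -0.029 to 0.039, DERL1 from -0.020 to 0.042, DERL2 from -0.11 to 0.22, ATF6 from -0.39 to 0.27, EIF2AK3 from -0.12 to 0.068, SEC24D from -0.91 to 0.0013 and SSR1 from -0.0089 to 0.21.

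Between the array numbers, signs changed as follows. With quantile normalization the values were EDEM1 -0.016 and SEC23B -0.035. With the mean of all probe sets the values were DERL2 0.16, ERN1 0.015, OS9 -0.0047, SSR1 -0.0086 and VCP -0.030. With the second brightest probe set the values were ATF6 -0.27, DERL2 0.56, ERN1 0.17, HERPUD1 0.14, OS9 -0.028, SEC61B 0.036, SEL1L -0.18, SSR3 0.21 and VCP -0.15. The causes were not tested.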
